A study of Mus musculus with 26 samples.

Results

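Ion channels are membrane proteins that open a pore for ions, and receptor channels open that pore when a transmitter binds. Oligodendrocyte progenitor cells (OPCs) are known for voltage-gated sodium and potassium currents and for glutamate and GABA receptors through which neurons signal to them. Oligodendrocytes (OLs), the myelin-forming cells, are known for inward rectifier potassium channels, of which Kir4.1 (Kcnj10) takes up potassium around active axons. The genes described here are those whose mouse symbol begins as a potassium (Kcn), sodium (Scn), calcium (Cacn) or Clcn channel gene, as a glutamate (Gria, Grid, Grik, Grin), GABA-A (Gabr) or P2X (P2rx) receptor gene or as a Trpc, Trpm or Trpv gene, together with Nalcn and Tmem38b. The rule was met by 63 of the 10104 genes listed for either cell type. It was met by 44 of 8530 genes listed for OPCs and by 59 of 9751 listed for OLs. Of these, 40 were listed for both, 4 for OPCs only and 19 for OLs only.

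The data followed labelled RNA through a chase. OPCs of strain 129S/SvEv, derived from epiblast stem cells, were grown with bFGF and PDGFA (20 ng/mL of each). OLs came from OPCs that had first been passaged without bFGF, and 5-EU was given to them after 40 h of differentiation in medium with noggin and IGF-1 (100 ng/mL of each), cyclic AMP (10 µM), NT3 (10 ng/mL) and the thyroid hormone T3 (40 ng/mL). Both cell types took up 5-ethynyluridine (5-EU), a uridine analogue to which biotin can be coupled, for 24 h, after which uridine replaced it, and labelled RNA was pulled down and sequenced after 0, 1, 2, 4 and 6 h in 3 OPC replicates and 2 OL replicates. Each OL replicate corresponds to an OPC replicate, but the sources do not say which. Levels are FPKM (fragments per kilobase of transcript, relative to all mapped fragments). Those after 0 h are scaled to labelled spike-in RNA, and those at 0 h are not changed by that scale. Half-lives are in hours with a ceiling of 6 h.

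The cell types were checked against marker lists at 0 h. All 11 oligodendrocyte markers were listed for OLs, with summed levels of 6450 and 2985 FPKM, while 3 of the 11 were listed for OPCs, with sums of 39.2 to 57.5 FPKM. All 7 OPC markers were listed for both, with sums of 1542 to 1711 FPKM in OPCs and of 1199 and 1021 FPKM in OLs. Of these 7, Pdgfra, Sox10 and Lhfpl3 were higher in both OL replicates than in all OPC replicates, Olig1, Olig2 and Cspg4 were lower, and Ptprz1 overlapped. Pdgfra was at 26.5, 11.5 and 13.3 FPKM in OPC replicates 1 to 3 and at 66.9 and 43.9 FPKM in OL replicates 1 and 2, Sox10 at 4.07 to 25.4 FPKM in OPCs and at 111 and 89.0 FPKM in OLs, and Lhfpl3 at 12.1 to 20.4 FPKM and at 27.6 and 35.2 FPKM. Cycling genes summed to 191 to 320 FPKM in OPCs and to 53.5 and 21.1 FPKM in OLs. Many channel genes are also neuronal genes. Of 11 neuron markers, 3 were listed for OPCs (sums of 68.1 to 178 FPKM) and 5 for OLs (219 and 190 FPKM), most of it Map2, and Rbfox3, Snap25, Stmn2, Nefl and Nefm were listed for neither. Elavl3 (25.9 and 13.6 FPKM), Eno2 (2.74 and 1.71 FPKM) and Syt1 (3.06 and 1.38 FPKM) were listed for OLs only and Elavl4 (2.20 to 3.20 FPKM) for OPCs only, and Dcx was at 1.49 to 5.52 FPKM in OPCs and at 12.1 and 11.2 FPKM in OLs. Of 8 astrocyte markers, 5 were listed for OPCs (429 to 512 FPKM) and 7 for OLs (675 and 829 FPKM), and Aqp4 was listed for neither. The list went both ways. S100b was at 9.07 to 10.5 FPKM in OPCs and at 290.02 and 160.25 FPKM in OLs, and Slc1a2 at 22.9 to 37.0 FPKM and at 77.4 and 95.7 FPKM, while Slc1a3 was at 179 to 224 FPKM in OPCs and at 95.5 and 155 FPKM in OLs. Gja1 was at 35.8 to 42.0 FPKM in OPCs and at 40.1 and 187.5 FPKM in OLs, Aldoc overlapped between the groups, and Gfap (6.86 and 8.12 FPKM) and Aldh1l1 (1.72 and 2.44 FPKM) were listed for OLs only. No marker of microglia, of pericytes and fibroblasts or of pluripotent stem cells was listed for either. The part of other cell types in the results below was not tested, and in bulk samples fewer cells of a type and less RNA per cell cannot be told apart.

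By role, the members comprised 14 voltage-gated potassium channels, 5 inward rectifiers, 1 2-pore and 3 calcium-activated potassium channels and 4 potassium channel auxiliary subunits. There were 5 sodium channel subunits with the sodium leak channel Nalcn, 7 calcium channel subunits, 10 glutamate receptor subunits, 6 Clcn chloride channels and exchangers, 2 GABA-A and 2 P2X receptor subunits, 3 genes named for Trp channels and the trimeric cation channel of the endoplasmic reticulum Tmem38b. Trpc4ap, which the symbol rule also takes in, encodes a protein associated with a Trp channel and is not itself a pore.

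What ties the potassium channels together is the selectivity filter, the stretch of the pore where a glycine-tyrosine-glycine triplet holds potassium ions. A search of the coding sequences for threonine or serine, then valine, isoleucine, methionine or leucine, then glycine, then tyrosine, phenylalanine, leucine or methionine, then glycine found it in 23 of 27 Kcn members and in 1.39% of all 10090 coding sequences that could be read. Auxiliary subunits do not line the pore. The stretches of members that the results turn on are shown 5′ to 3′ on the coding strand, from the GENCODE M21 transcripts (GRCm38), with the codons of the triplet in capitals.
Kcna2: actgtaGGCTATGGAgacatg
Kcna1: actgtgGGATACGGTgacatg
Kcna6: acggtaGGTTATGGGgacatg
Kcnc1: acactgGGCTATGGAgacatg
Kcnc4: acgcttGGCTATGGGgacatg
Kcnj10: accatcGGCTATGGCttccgc
Kcnj16: accattGGATACGGTtaccgc
Kcnh2: agcgtgGGCTTTGGCaatgtc
Kcnk1: accatcGGCCTGGGGgactat

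All of these lie within 1 coding exon. The Kcna2 stretch is at chr3:107105224-107105244 on the plus strand, that of Kcnc1 at chr7:46427973-46427993 on the plus strand and that of Kcnj10 at chr1:172369302-172369322 on the plus strand. The stretches shown for Kcnh2 and Kcnk1 carried phenylalanine and leucine codons in place of tyrosine. That of Kcnk1 starts at codon 225. A filter elsewhere in Kcnk1 that departs from the searched pattern, for example with threonine just before the triplet, would not have been found.

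The first comparison asked which channel genes had more or less labelled RNA at 0 h, that is after the labelling period, in OLs than in OPCs. Levels at 0 h are relative to all mapped fragments of a library and are not on the spike-in scale. Members had low levels: their median at 0 h was 10.4, 9.76 and 10.7 FPKM in OPC replicates 1 to 3 and 8.22 and 7.19 FPKM in OL replicates 1 and 2, beside medians of 17.4, 19.1 and 18.5 FPKM and of 15.6 and 17.0 FPKM over all listed genes. Among the 40 members listed for both cell types, 10 were higher and 4 lower in OLs at an adjusted p under 0.05 with limma on log2(FPKM + 1). Of all 8177 genes tested, 14.1% were higher and 17.5% lower. The median difference, OL minus OPC on the log2(FPKM + 1) scale, was 0.31 over members and -0.01 over all genes. Without OPC replicate 1 the split was nearly even, with 8 higher and 7 lower, and the median over members was 0.16. Without OL replicate 1 the count was 7 of 40, and without OPC replicate 3 it was 9. The methods describe the replicates as biological ones, and the p-values measure the spread between them.

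**Figure D1:**
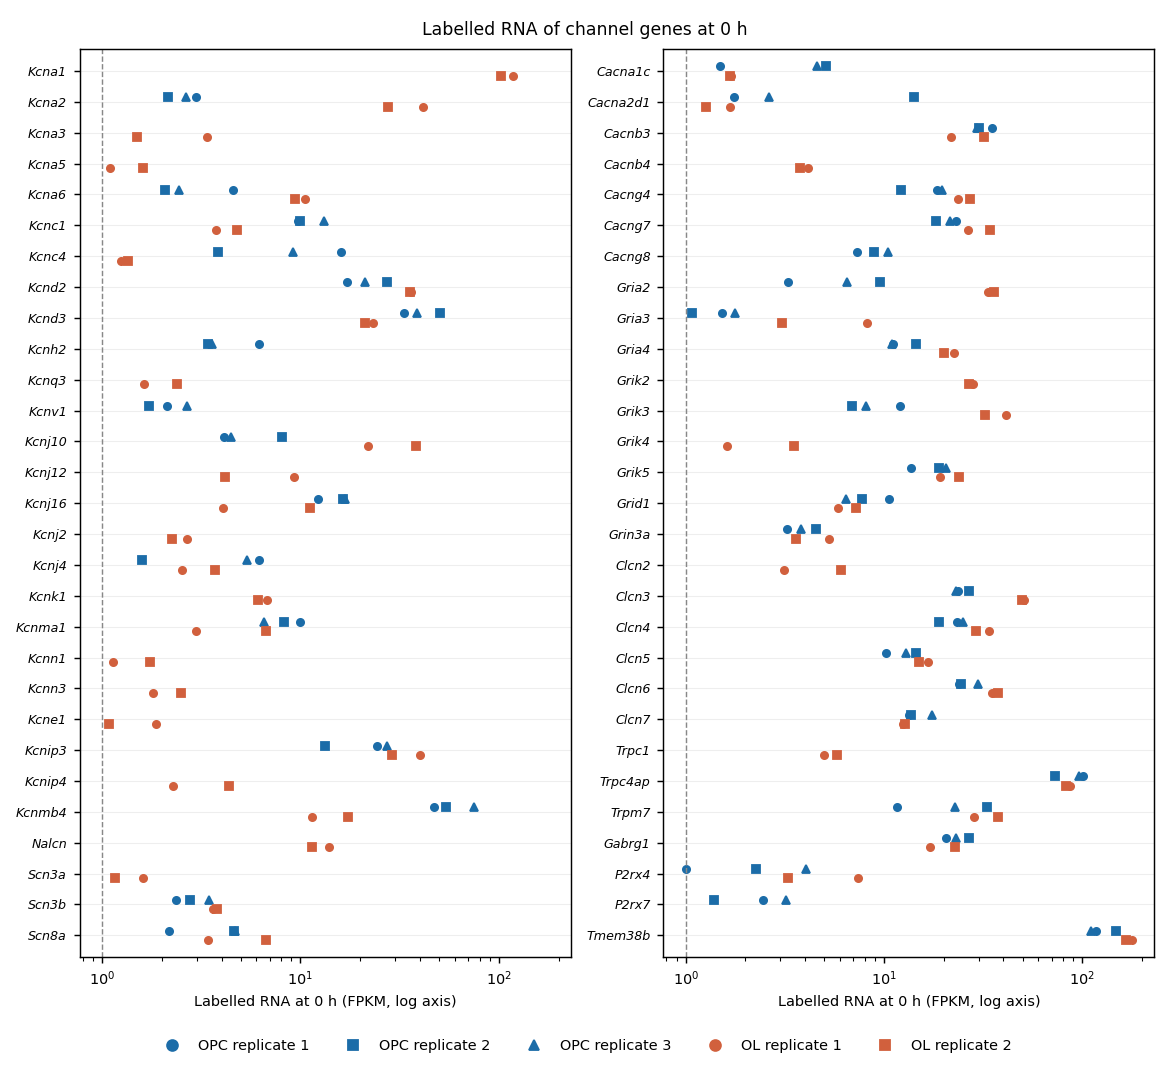
Labelled RNA at 0 h (FPKM, log axis) of 58 of the 63 channel genes, with 1 point for each replicate of OPCs (blue) and OLs (orange) and a dashed line at the 1 FPKM minimum of the listed values. Rows with points of 1 colour are genes listed for 1 cell type, and Kcna2, Kcnj10, Gria2 and Grik3 have both OL points to the right of all 3 OPC points.

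Among voltage-gated potassium channels, Kcna2, a Kv1 subunit of axons, had the highest difference of any member. It stood at 2.97, 2.15 and 2.66 FPKM in OPC replicates 1 to 3 and at 41.5 and 27.8 FPKM in OL replicates 1 and 2, a difference of 3.29 ± 0.30 (log2(FPKM + 1), SE, adjusted p = 7.17e-05). Kcna6, another Kv1 subunit, was at 4.56, 2.07 and 2.43 FPKM in OPCs and at 10.6 and 9.40 FPKM in OLs (1.50 ± 0.33, adjusted p = 0.00871). In both genes the OL values lay above all OPC values, though the call of Kcna6 was lost without either OL replicate (adjusted p up to 0.079). The Kv1 subunit Kcna1 was listed for OLs only, at 118 and 103 FPKM, which made it the highest voltage-gated potassium channel there. Kcna3 (3.38 and 1.50 FPKM) and Kcna5 (1.09 and 1.62 FPKM) were also listed for OLs only. Kcna1, Kcna5 and Kcna6 are neighbours on chromosome 6 and Kcna2 and Kcna3 on chromosome 3.

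The Kv3 subunits, which form fast-closing channels, went the other way. Kcnc4 was at 16.0, 3.83 and 9.16 FPKM in OPCs and at 1.24 and 1.35 FPKM in OLs (-2.04 ± 0.47, adjusted p = 0.0103). Kcnc1 was at 9.75, 10.00 and 13.1 FPKM in OPCs and at 3.75 and 4.80 FPKM in OLs (-1.17 ± 0.29, adjusted p = 0.0131). Neither gene overlapped between the cell types. The call of Kcnc4 was lost without either OL replicate and that of Kcnc1 without OL replicate 1 or OPC replicate 3, with adjusted p up to 0.089 and 0.106. The Kv4 subunits, which carry A-type currents, differed in direction. Kcnd3, the highest voltage-gated potassium channel in OPCs, was at 33.1, 50.8 and 38.9 FPKM there and at 23.2 and 21.3 FPKM in OLs (-0.83 ± 0.23, adjusted p = 0.0223), a call lost without OPC replicate 3 or either OL replicate (adjusted p up to 0.124). Kcnd2 was at 17.1, 27.2 and 21.1 FPKM in OPCs and at 36.1 and 35.8 FPKM in OLs (0.72 ± 0.24, adjusted p = 0.0455), and its call was lost when any replicate other than OPC replicate 2 was left out. Blocking on replicate also ended it (adjusted p = 0.105). The M-current subunit Kcnq3 (1.64 and 2.37 FPKM) was listed for OLs only. The Erg channel Kcnh2 (6.21, 3.43 and 3.57 FPKM) and the silent subunit Kcnv1 (2.12, 1.73 and 2.68 FPKM) were listed for OPCs only.

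Kcnj10, which encodes Kir4.1, was the highest inward rectifier in OLs. It was at 4.10, 8.04 and 4.49 FPKM in OPCs and at 21.8 and 38.4 FPKM in OLs (2.24 ± 0.36, adjusted p = 0.00161), and the cell types did not overlap. Its channel partner Kcnj16 (Kir5.1), the highest inward rectifier in OPCs, was at 12.3, 16.5 and 16.8 FPKM there and at 4.07 and 11.2 FPKM in OLs (-1.03 ± 0.38, adjusted p = 0.0655). Kcnj4 did not differ past the threshold (adjusted p = 0.669). Kcnj12 (9.29 and 4.19 FPKM), Kcnj2 (2.67 and 2.26 FPKM) and the 2-pore channel Kcnk1 (6.76 and 6.13 FPKM) were listed for OLs only. Of the calcium-activated channels, Kcnma1, the big-conductance pore subunit, was the highest in both cell types (9.97, 8.24 and 6.53 FPKM in OPCs and 2.98 and 6.73 FPKM in OLs, adjusted p = 0.147), and Kcnn1 (1.13 and 1.74 FPKM) and Kcnn3 (1.80 and 2.49 FPKM) were listed for OLs only.

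Of the 4 auxiliary subunits of potassium channels, Kcnmb4 and Kcnip3 could be tested, and Kcnmb4 passed. Kcnmb4, a beta subunit of the big-conductance channel, was the highest of the 4 in OPCs, at 47.1, 54.2 and 74.7 FPKM, and was at 11.5 and 17.3 FPKM in OLs (-1.95 ± 0.26, adjusted p = 0.000612). The groups did not overlap. Kcnip3, a calcium-binding partner of Kv4 channels, was the highest in OLs, at 40.3 and 29.0 FPKM against 24.3, 13.3 and 27.3 FPKM in OPCs (adjusted p = 0.119). Kcnip4 (2.27 and 4.37 FPKM) and Kcne1 (1.88 and 1.08 FPKM) were listed for OLs only.

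No sodium or calcium channel subunit passed the threshold at 0 h. Nalcn, the sodium leak channel that holds the resting potential, was listed for OLs only and was the highest of the sodium group there, at 14.0 and 11.4 FPKM. The pore subunit Scn8a (Nav1.6) lay between 2.19 and 4.68 FPKM in OPCs and at 3.43 and 6.72 FPKM in OLs, and Scn3a was listed for OLs only (1.61 and 1.16 FPKM). Among calcium channel subunits the beta subunit Cacnb3 was at 29.5 to 34.9 FPKM in OPCs and at 21.7 and 32.0 FPKM in OLs. The gamma subunits Cacng7 and Cacng4, which accompany AMPA receptors, were at 18.3 to 23.1 and 12.2 to 19.7 FPKM in OPCs and at 26.5 and 34.2 and 23.5 and 27.3 FPKM in OLs (adjusted p = 0.115 and 0.118). Cacng8, of the same group, was listed for OPCs only (7.30, 8.91 and 10.4 FPKM), and Cacnb4 for OLs only (4.16 and 3.79 FPKM). The pore subunit Cacna1c was at 1.50 to 5.10 FPKM in OPCs and at 1.70 and 1.67 FPKM in OLs, and Cacna2d1 stood apart in OPC replicate 2, with 14.1 FPKM beside 1.75 and 2.64 FPKM in the other OPC replicates.

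AMPA and kainate receptor subunits made up 4 of the 10 members that were higher in OLs. All 3 AMPA receptor subunits listed rose. Gria2, the subunit whose edited form makes AMPA receptors little permeable to calcium, was at 3.27, 9.53 and 6.48 FPKM in OPCs and at 33.5 and 36.0 FPKM in OLs (2.36 ± 0.37, adjusted p = 0.00151). Gria3 was at 1.53, 1.07 and 1.77 FPKM in OPCs and at 8.22 and 3.07 FPKM in OLs (1.33 ± 0.38, adjusted p = 0.0250). Gria4, the highest AMPA subunit in OPCs, was at 11.1, 14.5 and 11.0 FPKM there and at 22.5 and 20.2 FPKM in OLs (0.77 ± 0.25, adjusted p = 0.0423). None of these overlapped between the cell types, although the calls of Gria3 and Gria4 did not hold in every fit that left out a replicate. That of Gria3 was lost without OPC replicate 2 or 3 or OL replicate 1, and that of Gria4 without any replicate but OPC replicate 2 (adjusted p up to 0.217 and 0.211). Blocking on replicate also ended the call of Gria4 (adjusted p = 0.178).

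The kainate receptor subunit Grik3 rose from 12.1, 6.93 and 8.09 FPKM in OPCs to 41.1 and 32.4 FPKM in OLs (1.93 ± 0.29, adjusted p = 0.00115). Grik5, the highest kainate subunit in OPCs, lay between 13.7 and 20.6 FPKM there and at 19.2 and 24.0 FPKM in OLs (adjusted p = 0.426). Grik2 (28.1 and 27.0 FPKM) and Grik4 (1.61 and 3.51 FPKM) were listed for OLs only. The delta receptor Grid1 was between 5.86 and 10.6 FPKM in all 5 replicates (adjusted p = 0.498). Grin3a, the only NMDA receptor subunit listed, was between 3.24 and 5.29 FPKM in all replicates.

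In the Clcn family, Clcn3, an endosomal chloride-proton exchanger, was at 23.5, 26.7 and 23.2 FPKM in OPCs and at 50.8 and 49.8 FPKM in OLs (1.01 ± 0.19, adjusted p = 0.00408), with no overlap. It was the highest Clcn gene in OLs, and the lysosomal exchanger Clcn6 had the highest mean in OPCs (23.8 to 29.9 FPKM, and 34.9 and 37.7 FPKM in OLs, adjusted p = 0.109). Clcn2, the plasma membrane channel, was listed for OLs only (3.13 and 6.09 FPKM). The GABA-A receptor subunit Gabrg1 (20.6 to 26.8 FPKM in OPCs, 17.1 and 22.7 FPKM in OLs) did not pass the threshold. Trpc4ap was the highest of the Trp group, at 72.7 to 101 FPKM in OPCs and at 86.2 and 82.5 FPKM in OLs (adjusted p = 0.785). Trpm7, a channel fused to a kinase, ranged from 11.6 to 32.9 FPKM in OPCs and was at 28.4 and 37.4 FPKM in OLs (adjusted p = 0.222). Trpc1 was listed for OLs only (4.97 and 5.81 FPKM), and the ATP-gated channel P2rx7 for OPCs only (2.46, 1.40 and 3.21 FPKM). Its relative P2rx4 was at 1.01, 2.26 and 4.05 FPKM in OPCs and at 7.44 and 3.28 FPKM in OLs.

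A gene that is not listed for a cell type did not pass the authors' filter there, which used a minimum of 1 FPKM at 0 h and removed transcripts at 0 at 1 h and 2 h, so the 23 genes listed for 1 cell type give no fold and no test. Most were low where they were listed. The exceptions were Kcna1 and Grik2 in OLs, both above 25 FPKM, and Nalcn at 11.4 and 14.0 FPKM.

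Other channel genes and genes of proteins that bind channels were looked up beside the members. Of 70 other channel genes, 31 were tested at 0 h, of which 9 were higher and 7 lower in OLs. The largest rise was that of the gap junction gene Gjc3 (5.05 ± 0.32, adjusted p = 1.97e-05), followed by the glycine receptor subunit Glrb (2.78 ± 0.26, adjusted p = 8.11e-05). Among volume-regulated anion channel subunits Lrrc8b, Lrrc8c and Lrrc8d were higher (1.58, 1.44 and 1.45). The lowest difference was that of Ano6, a scramblase and channel (-1.95 ± 0.20, adjusted p = 0.000123). Of 34 channel partners 15 were tested, of which 2 were higher (Dlg1 and Nedd4l) and 4 lower (Calm2, Calm3, Dlg4 and Ncs1).

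The second comparison followed how fast the labelled channel transcripts declined. The median level left after 6 h, relative to 0 h, was 17.4%, 13.6% and 22.9% over members in OPC replicates 1 to 3 and 43.0% and 34.9% in OL replicates 1 and 2. Over all listed transcripts it was 14.4%, 11.0% and 17.7% in OPCs and 31.5% and 36.6% in OLs. At 4 h members stood at 60.2%, 29.5% and 54.6% in OPCs, above the 39.0%, 20.4% and 37.0% of all transcripts, and at 75.9% and 56.3% in OLs, beside 55.4% and 55.0%. At 1 h, however, the replicates of a cell type differed more than members did from other transcripts, with members at 71.6%, 95.6% and 68.8% in OPCs and at 66.5% and 96.7% in OLs.

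**Figure D2:**
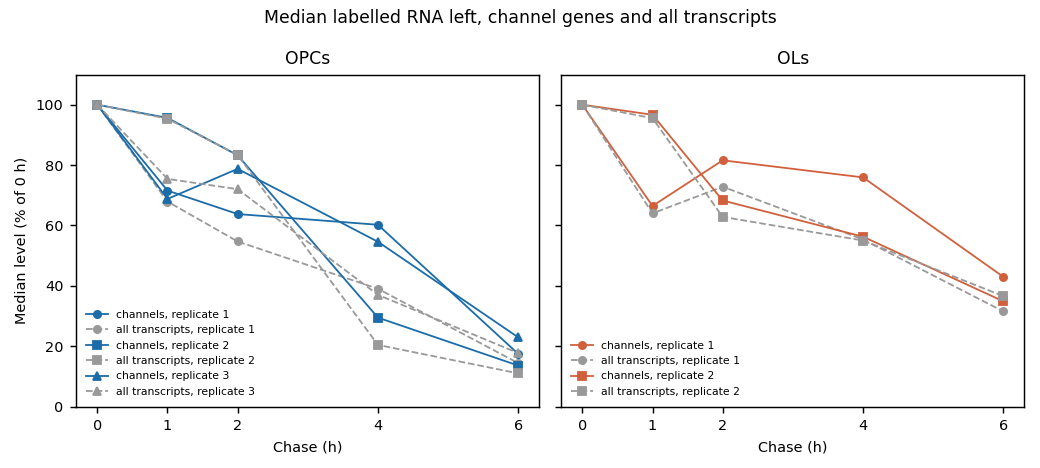
Median level relative to 0 h (%) by hours of chase, over channel genes (coloured, solid) and over all listed transcripts (grey, dashed), with a line for each replicate. Channel genes lie above all transcripts at 4 h in every OPC replicate, and in OLs the gap at 4 h is wide in replicate 1 (75.9% against 55.4%) and small in replicate 2 (56.3% against 55.0%).

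In OPCs, 36 of 44 members fell during the chase and 1 rose (adjusted p under 0.05, limma, slope of log2(FPKM + 1) per h), beside 81.9% of all transcripts that fell and 5.06% that rose. Per h, members had a median slope of -0.27 log2 units and all transcripts one of -0.38. In OLs 32 of 59 members fell and 1 rose, beside 68.9% and 1.98% of all transcripts, with medians of -0.14 and -0.20. Leaving out OL replicate 2 gave a median member slope of -0.122 in OLs. Leaving out the 6 h libraries left 14 members that fell in OLs and 2 that rose. The libraries of a replicate come from 1 time course, so the p-values of slopes within a cell type do not measure the spread of slopes between replicates. These falls are on the spike-in scale, where 1 factor per library is shared by all transcripts. Relative to the median transcript of each library, whose use moved the median slope of all transcripts from -0.38 to 0.06 in OPCs and from -0.20 to 0.03 in OLs, 27 members rose and 2 fell in OPCs, beside 39.4% and 13.5% of all transcripts. In OLs 26 members rose and 4 fell on that scale, beside 31.4% and 13.4%. The 1 FPKM added before the logarithm flattens slopes at low levels. In OPCs 34.1%, 31.8% and 34.1% of members were under 5 FPKM at 0 h, beside 16.2%, 10.2% and 12.2% of all transcripts. With a pseudocount of 0.1 the median member slope in OPCs, on the spike-in scale, was -0.405. Kcnv1, at 0 FPKM at 6 h in every OPC replicate, was among the 27. The part of low levels in these rises was not tested.

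In OPCs, Trpm7 (-0.63 ± 0.07 log2 units per h, SE), Kcnc1 (-0.57 ± 0.06) and Clcn6 (-0.56 ± 0.07) had the steepest slopes, with adjusted p of 2.77e-08, 1.12e-08 and 5.33e-07. Their order was not stable, since with a pseudocount of 0.1 Kcnc1 was at -0.97 and Trpm7 at -0.79, and without OPC replicate 3 Clcn6 was at -0.68 and Trpm7 at -0.61. Trpm7 went from 11.6, 32.9 and 22.9 FPKM at 0 h to 0.714, 1.01 and 0.478 FPKM at 6 h. The steepest in OLs were Clcn5, an endosomal exchanger (-0.46 ± 0.05), Kcna1 (-0.45 ± 0.05) and Kcna2 (-0.45 ± 0.04), with adjusted p of 1.35e-06, 8.08e-07 and 4.11e-07, and their order also changed between settings. Kcna1 went from 118 and 103 FPKM to 22.1 and 10.8 FPKM, and Kcna2 ended at 14.5% and 11.7% of its 0 h level. Both Kv1 transcripts thus fell in each OL replicate, and each of these slopes also fell relative to the library medians, except that of Clcn6 in OPCs (adjusted p = 0.164).

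**Figure D3:**
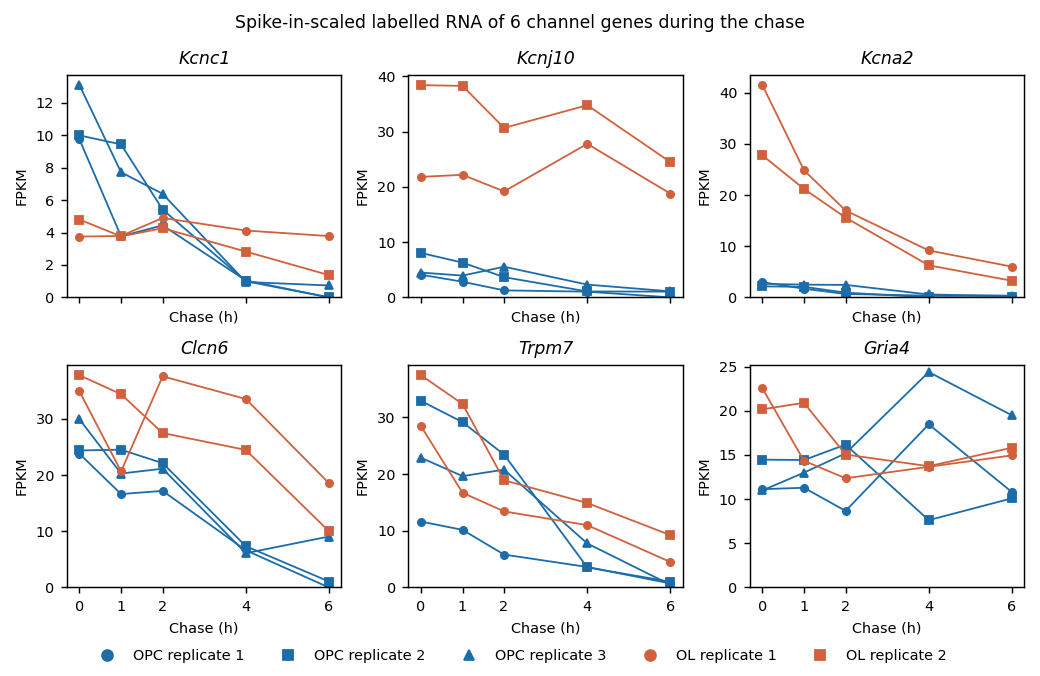
Labelled RNA (FPKM, spike-in-scaled) by hours of chase for 6 channel genes, with a line for each replicate of OPCs (blue) and OLs (orange). Kcnc1 falls to 0.734 FPKM or less at 6 h in OPCs. In OL replicates 1 and 2 it goes from 3.75 and 4.80 FPKM at 0 h to 3.78 and 1.37 FPKM at 6 h. Kcna2 falls in both cell types.

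Half-lives were given for 42 members in OPCs and 58 in OLs. For 37 members every replicate had a value, and their median was 3.11, 2.63 and 4.27 h in OPC replicates 1 to 3 and 6.00 and 5.23 h in OL replicates 1 and 2. Over all 8112 such transcripts it was 2.35, 2.08 and 2.83 h and 4.54 and 4.44 h. The median member thus lay at percentiles 59.8, 58.7 and 61.5 of all half-lives in the OPC replicates and at 78.8 and 56.2 in the OL replicates. In OL replicate 1 the median member was at the ceiling, where 42.3% of all transcripts tied. The 78.8 is the mean rank of that tie and gives no place within it. At the ceiling were 11, 8 and 14 members in OPCs and 22 and 13 in OLs, or 29.7%, 21.6% and 37.8% and 59.5% and 35.1%, beside 24.5%, 25.3% and 31.6% and 42.3% and 38.8% of all transcripts.

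**Figure D4:**
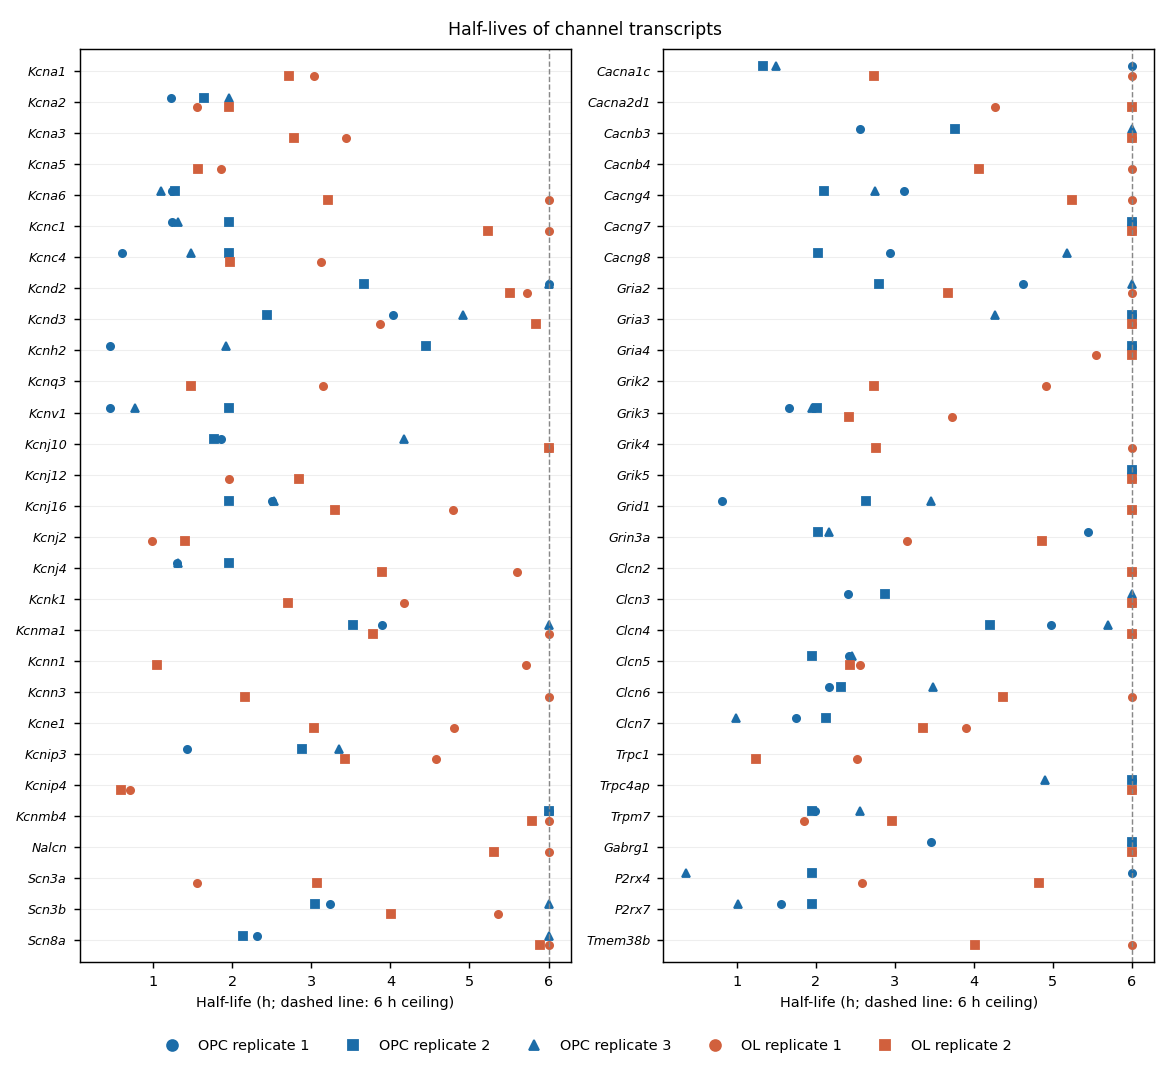
Half-life (h) of the channel transcripts, with 1 point for each replicate of OPCs (blue) and OLs (orange) and a dashed line at the 6 h ceiling. Kcnc1, Kcna6 and Kcnj10 have both OL points to the right of all 3 OPC points, Kcna2 overlaps between 1.23 and 1.96 h, and Grik5 and Cacng7 are at the ceiling in every replicate.

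In OPCs the half-lives of receptor channels had higher medians than those of potassium channels. The 11 glutamate, GABA-A and P2X receptor subunits with all values had median half-lives of 6.00, 3.02 and 6.00 h in OPC replicates 1 to 3, and the 11 potassium channel pore subunits had 1.63, 1.96 and 2.53 h. The 1.96 h of OPC replicate 2 is a value that the fit returned for many transcripts, as described below. In OLs the receptor subunits were at 6.00 h in both replicates and the potassium channels at 5.73 and 3.89 h. These are descriptions of the members with no test, since genes are not replicates. In OPCs 5 of 42 members were at the ceiling in all 3 replicates (11.9%, beside 17.4% of all transcripts), among them Gria4, Grik5, Cacng7 and Kcnmb4. In OLs 13 of 58 were at it in both (22.4%, beside 28.9%), among them Kcnj10, Cacnb3, Cacng7, Gria3, Grik5, Grid1, Clcn2, Clcn3, Clcn4, Trpc4ap and Gabrg1.

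The shortest mean half-lives in OPCs were those of Kcnv1 (0.457, 1.96 and 0.770 h), Kcna6 (1.24, 1.28 and 1.10 h), Kcnc4 (0.610, 1.96 and 1.48 h), Kcnc1 (1.24, 1.96 and 1.31 h) and P2rx7 (1.56, 1.96 and 1.02 h). Of these, 4 are voltage-gated potassium channel subunits. In OLs the shortest were those of the auxiliary subunit Kcnip4 (0.708 and 0.588 h), the inward rectifier Kcnj2 (0.979 and 1.40 h), Kcna5 (1.86 and 1.56 h), Kcna2 (1.55 and 1.96 h) and Trpc1 (2.52 and 1.24 h). Kcna2 thus combined the largest rise at 0 h with 1 of the shortest half-lives, and its half-life in OLs overlapped that in OPCs (1.23, 1.65 and 1.96 h, adjusted p = 0.877).

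The value of 1.96 h recurred. It is what a fit by least absolute deviations returns whenever a transcript lies above the fitted curve at 1 h and 2 h and below it at 4 h and 6 h, whatever its levels. Within 0.01 h of it were 9 of 42 members in OPC replicate 2 (21.4%), and 0, 2, 1 and 1 members in OPC replicates 1 and 3 and OL replicates 1 and 2. Among all transcripts the shares were 25.9% in OPC replicate 2, 2.46% and 7.83% in the other OPC replicates and 0.629% and 1.64% in OLs. For Kcnc1, Kcnc4, Kcnv1, Kcnj4, Kcnj16, Clcn5, Trpm7, P2rx4 and P2rx7, equal half-lives in OPC replicate 2 therefore do not show equal decay.

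Whether half-lives differed between the cell types was tested with limma on log2 half-life. None of the 37 members passed an adjusted p of 0.05, beside 3.54% of all 8112 transcripts, and 7 members had an unadjusted p under 0.05, beside 1866 of the 8112 transcripts. Dropping a replicate gave 0 to 2 calls. The median difference, OL minus OPC, was 0.44 log2 units over members and 0.37 over all transcripts. In 14 of 37 members both OL values lay above all 3 OPC values and in 0 both lay below, beside 35.9% and 2.01% of all transcripts.

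The largest difference was that of Kcnc1, at 1.24, 1.96 and 1.31 h in OPCs and at 6.00 and 5.23 h in OLs (1.93 ± 0.26 log2 units, SE, adjusted p = 0.0589). Kcna6 followed, with 6.00 and 3.21 h in OLs (1.87 ± 0.32, adjusted p = 0.0848), then Kcnj4, at no more than 1.96 h in any OPC replicate and at 5.60 and 3.89 h in OLs (1.64 ± 0.29, adjusted p = 0.0897). Cacng4 was at 3.11, 2.11 and 2.75 h in OPCs and at 6.00 and 5.25 h in OLs (1.10 ± 0.21, adjusted p = 0.0964). The OL and OPC values of these 4 did not overlap. Kcnj10 was at 1.86, 1.76 and 4.18 h in OPCs and at 6.00 h in both OL replicates (adjusted p = 0.240), where the ceiling hides any longer half-life. Of the other channel genes, Lrrc8a and Stim1 had longer half-lives in OLs (1.66 and 1.15 log2 units, adjusted p = 0.0311 and 0.0409), as had the partner Dlg1 (1.13, adjusted p = 0.0427). These were 2 of 31 and 1 of 15 tested.

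The slopes compare the declines without the fitted half-lives and their ceiling. In 14 of 40 members the slope was higher in OLs, that is the fall was smaller, and in 1 it was lower (limma, cell type by time, adjusted p under 0.05), beside 31.5% and 0.404% of all 8177 transcripts. The 5 libraries of a replicate come from 1 time course, so the 25 libraries are not independent samples. In 23 members both OL slopes lay above all 3 OPC slopes and in 2 both lay below, beside 50.9% and 3.27% of all transcripts, and the 15 members called were all among these 25. Leaving out OL replicate 1 left 1 member called and leaving out OL replicate 2 left 7. Relative to the library medians, which moved the median difference of all transcripts from 0.14 to -0.07, 11 of the 40 members were called, of which Kcnc1 was higher in OLs and 10 were lower, beside 4.13% and 22.7% of all transcripts.

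**Figure D5:**
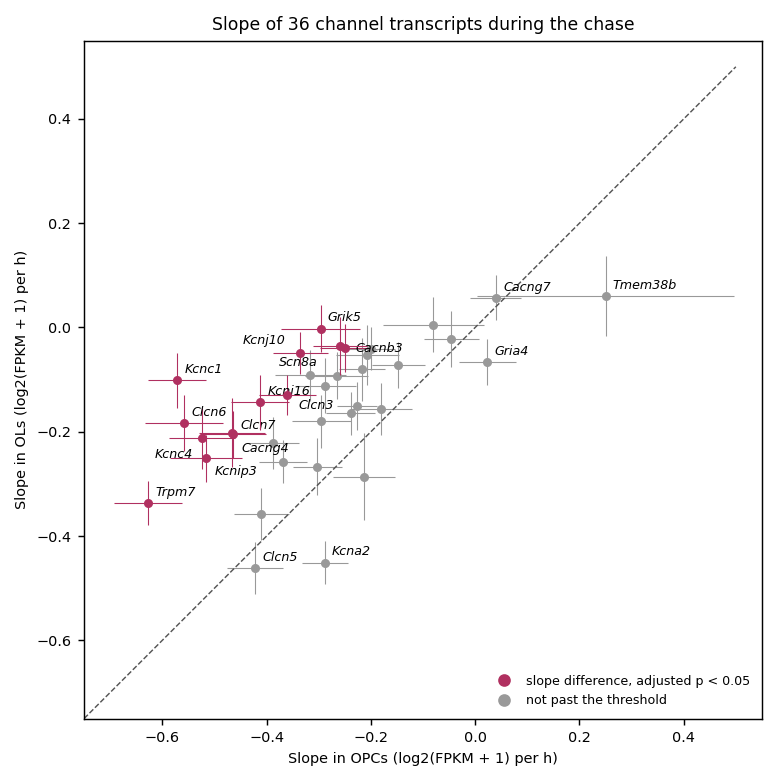
Slope of log2(FPKM + 1) per h in OPCs (horizontal) and in OLs (vertical) for 36 of the 40 channel transcripts listed for both, with SE bars and a dashed line of equal slopes. Dark red points passed the test of the slope difference, and all 13 of them lie above the line on the spike-in scale.

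Among potassium channels, and among all members, Kcnc1 had the largest slope difference (0.47 ± 0.07 log2 units per h, adjusted p = 0.000163). Its slopes were -0.54, -0.63 and -0.54 in OPC replicates 1 to 3 and -0.00 and -0.20 in OL replicates 1 and 2, and its level at 6 h was 0, 0 and 0.734 FPKM in OPCs and 3.78 and 1.37 FPKM in OLs. It was called in every alternative fit that it entered (it was under the 5 FPKM minimum of 1 other), and relative to the library medians its difference was 0.26 (adjusted p = 0.00795). Kcnc4 differed by 0.31 ± 0.09 (adjusted p = 0.0103), Kcnj10 by 0.29 ± 0.07 (adjusted p = 0.00461), Kcnj16 by 0.27 ± 0.08 (adjusted p = 0.00997) and Kcnip3 by 0.27 ± 0.09 (adjusted p = 0.0310). For Kcnj10 the slopes were -0.37, -0.40 and -0.24 in OPCs and -0.01 and -0.09 in OLs. Kcnj10 thus had both more labelled RNA at 0 h and a smaller fall in OLs, while Kcnc1 had less RNA at 0 h and a smaller fall. Kcnc4 started at 1.24 and 1.35 FPKM in OLs, where the added 1 FPKM flattens a slope, and its difference did not pass with a pseudocount of 0.1 (adjusted p = 0.0787). Its level at 6 h was 6.33%, 0% and 0% of that at 0 h in OPCs and 0% and 12.2% in OLs.

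Among sodium and calcium channel subunits, Cacng4 (0.26 ± 0.08), Scn8a (0.22 ± 0.08) and Cacnb3 (0.21 ± 0.07) had smaller falls in OLs, with adjusted p of 0.0196, 0.0250 and 0.0220. In the chloride family Clcn6 (0.38 ± 0.10), Clcn7 (0.26 ± 0.09) and Clcn3 (0.23 ± 0.07) passed, with adjusted p of 0.00860, 0.0315 and 0.0154. Clcn7 is a lysosomal exchanger. The slopes of Clcn5 overlapped, at -0.36, -0.53 and -0.38 in OPCs and at -0.45 and -0.47 in OLs (difference -0.04 ± 0.07, adjusted p = 0.701). Trpm7 (0.29 ± 0.09, adjusted p = 0.0120) and the kainate subunit Grik5 (0.29 ± 0.10, adjusted p = 0.0308) also had a smaller fall. Grik5 had a half-life at the ceiling in all 3 OPC replicates although it stood at 0.516, 5.37 and 7.30 FPKM at 6 h, from 13.7, 18.9 and 20.6 FPKM at 0 h. Without OL replicate 1 Kcnc1 was the only 1 of the 15 still called.

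Kcna2 was a member whose OL slopes, -0.42 and -0.48, both lay below those in OPCs, at -0.25, -0.32 and -0.29 (difference -0.16 ± 0.07, adjusted p = 0.0671). Adding 1 FPKM before the logarithm flattens slopes at low levels, and Kcna2 started at 2.15 to 2.97 FPKM in OPCs. AMPA receptor subunits gave slope differences of 0.17 for Gria2, 0.02 for Gria3 and -0.09 for Gria4, none past the threshold. Relative to the library medians, Kcna2 (-0.38, adjusted p = 0.000316), Gria4 (-0.30, adjusted p = 0.000518) and Gria3 (-0.19, adjusted p = 0.0345) were among the 10 members called lower in OLs. That fit keeps the added 1 FPKM. At 6 h Kcna2 stood at 11.6%, 0% and 10.0% of its 0 h level in OPC replicates 1 to 3. It stood at 14.5% and 11.7% in OLs, so the level left at 6 h was not lower there.

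Tmem38b was the most abundant member at 0 h, at 118, 148 and 110 FPKM in OPCs and at 178 and 167 FPKM in OLs (adjusted p = 0.0876). Its chase values were unlike those of any other member. OPC replicate 1 rose to 447 FPKM at 4 h and to 39639 FPKM at 6 h, an extreme value, while OPC replicates 2 and 3 were at 283 and 0 FPKM at 6 h and the OL replicates at 422 and 59.2 FPKM. The slope in OPCs was 0.25 ± 0.25 log2 units per h (adjusted p = 0.342) with the extreme value and -0.20 (adjusted p = 0.320) without it. No half-life was given for OPCs, and those in OLs were 6.00 and 4.02 h.

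The members were also described by what the rule did not use. Coding sequence and 3′ untranslated region could be read for 62 of 63 from GENCODE M21. The median coding sequence was 1899 bases and the median 3′ untranslated region 1859 bases, beside 1401 and 1096 bases over all transcripts. Members had a median of 67.6% G or C at the last position of codons (60.6% over all), 38.4% UUU among phenylalanine codons (44.4%) and 33.3% AAA among lysine codons (37.5%). Rank correlations between a member's UUU share and its half-life were 0.32, 0.24 and 0.32 in OPC replicates 1 to 3 and -0.05 and 0.10 in OL replicates 1 and 2 (Spearman's rho over 37 members, which share their libraries). Over the 8101 transcripts they were 0.05, -0.04 and 0.05 and -0.22 and -0.08. The AU-rich motif ATTTA, searched on the coding strand of the 3′ untranslated region, was present in 72.6% of members and 69.1% of all transcripts, at medians of 1.33 and 1.35 per kilobase, and TATTTAT, which contains it, in 33.9% and 29.7%. Kcnv1 and Trpc1, which had short half-lives, had 6.32 and 5.43 ATTTA per kilobase, while Clcn2 and Gabrg1, at the ceiling in OLs, had 7.17 and 5.71. That of Clcn2 rests on 2 motifs in 279 bases.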

How the data were processed

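Labelled RNA of 15 OPC and 10 OL libraries was analysed, and 1 OPC control without biotin was not analysed here. Per the submitters' processing notes, reads were aligned with HISAT2 2.1.0 and assembled with StringTie 1.3.5 on GRCm38. The deposited levels are FPKM, which the authors scaled by the reads of labelled spike-in RNA, a scale that leaves those at 0 h unchanged. The authors left out transcripts by their level at 0 h (under 1 FPKM) and by zeros at 1 h and 2 h. The deposited half-lives were fitted by the authors in each replicate, with longer values set to 6 h. Read counts are not part of these values, so the depth behind them is unknown and no counting interval is given.

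Members were taken by symbol. They and all lists were chosen with earlier results of these data known. Levels were tested as log2(FPKM + 1), half-lives as log2 hours and slopes as log2(FPKM + 1) per h with limma 3.58.1 in R 4.3.3 over all transcripts, with Benjamini-Hochberg adjustment over all of them and a two-sided threshold of 0.05. Slopes within a cell type had the replicate as a block. A fold on the log2(FPKM + 1) scale understates the change of low genes. Scripts were tested on simulated data. Genes were named if called between the cell types, highest of their subfamily, among the 5 shortest half-lives or always at the ceiling, listed for 1 cell type, among the 3 steepest slopes or rising. Other genes given values (among them Kcnj4, Grid1, Clcn5, Cacna2d1 and P2rx4) were chosen after their values were seen. The values of 5 members, which stay in all counts and medians, are not reported here. Alternatives left out a replicate or the 6 h libraries, added or dropped the replicate block, required 5 FPKM, changed the pseudocount to 0.1 (or 0 at 0 h), centred libraries or replicates on their medians, rescaled or refitted half-lives, or used hours.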

Additional observations from a re-analysis of the deposited data

Results flagged for a closer look

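The decline during the chase differed between the cell types, by the limma test of the slope difference, in 13 channel transcripts that are named here. Of all 40 members tested, 14 were called higher and 1 lower in OLs, beside 31.5% and 0.404% of all 8177 transcripts. OL minus OPC, in log2 units per h, the difference was 0.47 for Kcnc1, 0.38 for Clcn6, 0.31 for Kcnc4 and 0.29 for Kcnj10, Trpm7 and Grik5. It was 0.27 for Kcnj16 and Kcnip3, 0.26 for Cacng4 and Clcn7, 0.23 for Clcn3, 0.22 for Scn8a and 0.21 for Cacnb3. Without OL replicate 1, only Kcnc1 of these was called. Without OL replicate 2, Cacng4, Clcn3, Clcn7, Grik5, Kcnip3, Kcnj16 and Trpm7 were lost. Without OPC replicate 2, Cacnb3, Grik5, Kcnip3, Scn8a and Trpm7 were lost, and without OPC replicate 1 Clcn7. Without the 6 h libraries Cacnb3, Cacng4, Clcn3, Clcn7, Grik5, Kcnip3, Kcnj16, Scn8a and Trpm7 were lost, and with a pseudocount of 0.1 Kcnc4. Relative to the library medians, Kcnc1 was called and the others were not.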

How the results depend on the processing

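With a replicate left out, members called ranged from 0 to 2 for half-lives (0 with all replicates), from 7 to 15 for 0 h levels (14), from 33 to 36 for the OPC decline (37), from 17 to 26 for the OL decline (33) and from 1 to 16 for the slope difference (15). Median differences then ranged from 0.352 to 0.52, from 0.158 to 0.387, from -0.311 to -0.255, from -0.163 to -0.122 and from 0.108 to 0.185. One half-life was called lower in OLs after rescaling to the mean decay curve, 1 was called higher after refitting without 6 h and 1 with half-lives in hours, and the median was -0.462 when centred on replicate medians and 0.0 when rescaled. At 5 FPKM or more at 0 h the calls were 6 of 21 at 0 h (median 0.466), 22 of 26 for the OPC decline, 16 of 30 for the OL decline and 9 of 21 for the slope difference, with fewer genes tested. Without 6 h, 16 OL slopes (14 falling and 2 rising) and 4 slope differences were called. With a pseudocount of 0.1 the median was -0.405 for the OPC decline and 0.227 for the slope difference. Centred on library medians, the medians were 0.166 for the OPC decline, 0.095 for the OL decline and -0.061 for the slope difference. Some directions turned. Centring took Kcnj16 to -0.122 (half-life) and Cacnb3 to -0.002 (slope difference). For Tmem38b the OPC slope was -0.347 without OPC replicate 1 and -0.197 without the extreme value, and its slope difference 0.407 and 0.258, while without OPC replicate 3 they were 0.82 and -0.76. The half-life of Tmem38b without that value gave no comparison, since none is listed for OPCs. The cause of these changes was not tested.

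With the replicate block, 0 half-lives, 15 levels at 0 h and 17 slope differences were called, and the block ended the calls of Gria4 and Kcnd2 at 0 h, among the genes named. Without it, 36 OPC and 31 OL declines were called. The OL replicates correspond to OPC replicates that are not named. Same-numbered samples had correlations of deviations of -0.00162 and -0.105 for half-lives and of 0.0589 and 0.0102 at 0 h, which cannot settle a pairing, since the deviations of 2 OL replicates mirror each other. The refit by least squares, chosen after seeing the data, called 0 half-lives.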

Other observations

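At 0 h the channel genes held 0.166%, 0.199% and 0.196% of the summed FPKM in OPC replicates 1 to 3 and 0.320% and 0.329% in OL replicates 1 and 2, where 59 rather than 44 of them were listed. Under 5 FPKM at 0 h were 34.1%, 31.8% and 34.1% of members in OPCs and 42.4% and 39.0% in OLs, beside 16.2%, 10.2% and 12.2% and 18.1% and 14.7% of all listed transcripts.

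Listed at 0 at 6 h were 8, 10 and 7 members in OPC replicates 1 to 3 and 4 and 0 in OL replicates 1 and 2, of 44 members in OPCs and 59 in OLs, beside 15.7%, 21.6% and 16.4% and 4.08% and 0.790% of all transcripts. Of the 2198 transcripts of OPC replicate 2 with a half-life within 0.01 h of 1.96 h, 43.6% were listed at 0 at 4 h or 6 h.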
